A study of Zea mays with 24 samples.

Results

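The subject is a set of 72 of 109715 gene identifiers whose transcript levels were higher in P6 leaf primordia labelled lg1-R than in wild-type siblings, described here by their levels in the regions of an older wild-type primordium, P7. Members were chosen from the deposited FPKM (fragments scaled to the length of the transcript and to the mapped fragments of the library). They had a mean of at least 2 FPKM in the 3 lg1-R libraries and a lowest lg1-R value at least 1.5 times the highest wild-type value. The P6 difference therefore chose the genes and is given without a test.

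All material was maize (Zea mays, cultivar B73), and polyadenylated RNA was sequenced from laser-microdissected tissue, with 3 libraries in each of 8 groups. In wild-type P7 primordia (P numbers count leaf primordia from the youngest), ligule, blade and sheath pieces were captured from the adaxial L1, the outermost cell layer on the upper side, and from all cell layers. The P6 groups, lg1-R and wild-type siblings, were whole-thickness tissue lying 400 to 900 µm from the leaf base. A P7 ligule piece was 100 µm high and centred on the preligule band, and blade and sheath pieces were taken 50 µm above and below it. Each replicate pooled 5 to 6 plants, and no label ties the pools of different regions to shared plants. The p-values measure the spread between these pools.

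The maize leaf has a distal blade and a proximal sheath, and the ligule is a fringe of epidermal origin that grows out at their boundary, with a wedge-like auricle on either side. The band of cells from which it forms, the preligule band, is seen first in the adaxial epidermis. liguleless1 (lg1) encodes an SBP-box transcription factor, and plants homozygous for recessive lg1 alleles lack the ligule and auricles.

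The lg1 transcript itself (GRMZM2G036297) measured 1.59, 1.42 and 2.33 FPKM in the libraries labelled lg1-R, and 0.465, 1.77 and 0.998 FPKM in wild type. The groups overlapped and the transcript was not lower in lg1-R, so its level does not check the label. In P7 it followed the ligule, at 12.5, 6.83 and 6.77 FPKM in adaxial L1 ligule against at most 0.416 in adaxial L1 blade and sheath. Through all layers it reached 1.38, 11.7 and 5.17 FPKM in ligule and at most 0.211 in blade and sheath.

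Of the 72 members, 45 passed the rule only because their lowest lg1-R value and all wild-type values were 0, and 0 is at least 1.5 times 0. Reads for 35 of these were in 1 lg1-R library and for 10 in 2, no library held more than 6 counts, and the median total was 1 count. The largest of their FPKM values, 10308.2, rested on 1 count. In P7, 17 of the 45 had no count in any of the 18 libraries and none had more than 17 counts in all. Their levels carry no readable difference between regions.

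The other 27 had reads in every lg1-R library. GRMZM2G503185 had 2, 1 and 2 counts in lg1-R and at most 3 in any P7 library, and GRMZM5G829825 had 3, 1 and 2 counts in lg1-R and none in wild type or P7. The remaining 25 had at least 10 counts in each lg1-R library and are the 25 members that passed the filter on low counts in P7, while the other 47 were not tested. That filter used P7 counts alone, so the detection of these 25 in P7 follows from it and is no finding.

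Among these 25, the smallest ratios of lowest lg1-R to highest wild-type value were 1.51 for GRMZM5G808853, 1.51 for PYL5 and 1.55 for GRMZM2G178509. Just outside lay GRMZM2G533800 at 1.48, GRMZM2G133746 at 1.47 and GRMZM5G854138 at 1.45. On level, the lowest mean lg1-R FPKM were 2.11 for GRMZM2G178509, 2.30 for PYL5 and 2.54 for FIP1. Just outside stood GRMZM2G062504 at 1.77, GRMZM2G133018 at 1.74 and GRMZM2G154799 at 1.72 FPKM.

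The reference table placed 17 of the 25 at 1 locus each, on 8 chromosomes, and gave 6 of them a name. PYL5 (GRMZM2G057959) belongs to the family of abscisic acid receptors, EREB20 (GRMZM2G174834) to the AP2/ERF transcription factors and CYP78A53 (GRMZM2G092823) to the cytochrome P450 enzymes. Incw (GRMZM2G119689) is a cell wall invertase, an enzyme that splits sucrose outside the cell. ATPP2-B1 (GRMZM2G099376) is named after a phloem protein 2 gene of Arabidopsis, and FIP1 is GRMZM2G046782. Incw alone of the 17 lay on the chromosome of lg1, which holds 11.9% of all identifiers placed, and 1677 genes in the table's order from it. GRMZM2G377217 and GRMZM2G074173 lay 3 positions apart in gene order.

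Depth was 3818649 to 32553958 counts in the adaxial L1 libraries, 9970945 to 52731783 in all layers and 15020913 to 40957592 in P6. The summed FPKM of 10 epidermis markers was 349 to 781 in adaxial L1 and 174 to 265 in all layers, and 5 of the 8 tested were higher in adaxial L1 with none lower. The summed FPKM of 9 photosynthetic markers was 0 to 4.06 in adaxial L1 and 12.5 to 61.5 in all layers, with 6 of 6 tested lower in adaxial L1. For 7 vascular markers the sums were 0 to 0.278 and 1.93 to 9.71 FPKM, with 2 of 2 tested lower in adaxial L1. In each adaxial L1 region 6 of the 7 vascular and 4 to 7 of the 9 photosynthetic markers were at 0 in all 3 libraries. These 3 lists of markers followed the labelled tissues. Of 7 tested meristem and boundary markers, 2 were higher and 0 lower in adaxial L1. In adaxial L1 blade replicates 1, 2 and 3, KN-1 (GRMZM2G017087) was uneven at 12.7, 2.33 and 0 FPKM, and lg3 (GRMZM2G087741) at 5.80, 0 and 0. Sheath replicate 4 and ligule replicate 3 of all layers stood apart for the members, as described further on.

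**Figure D1:**
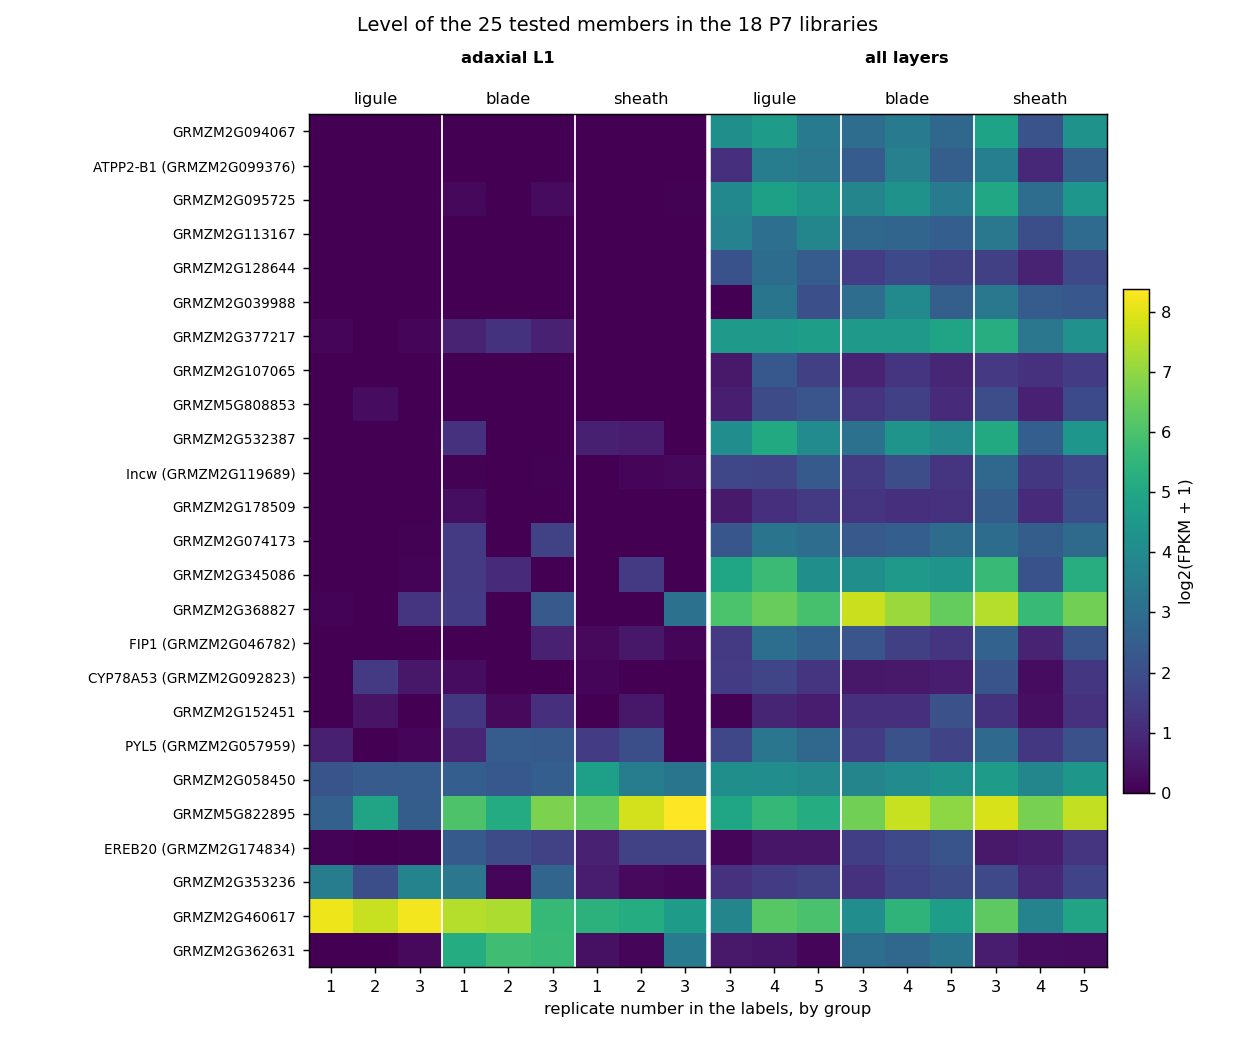
Level of the 25 tested members as log2(FPKM + 1) in each of the 18 P7 libraries, with adaxial L1 on the left, all layers on the right, and members ordered by the fitted difference between them. Most rows are at or near 0 throughout adaxial L1 and not in all layers; GRMZM5G822895 and GRMZM2G460617 are the members with the highest levels in adaxial L1.

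The mean adaxial L1 level was under 0.1 of the mean all-layers level for 16 of the 25 members, as for 5.53% of all genes. In adaxial L1 18 of the 25 were lower than in all layers and 1 was higher (edgeR quasi-likelihood test, Benjamini-Hochberg adjusted p below 0.05), against 20.9% lower and 12.8% higher among the 22334 genes tested. Among the 16694 genes that also had a mean lg1-R level of at least 2 FPKM, 18.1% were lower and 15.6% higher. The median log2 difference of the 25 was -6.44, against -0.15 over all genes tested, or -6.16 with members of 0 to 3 counts at their bound or ratio. Of the 18 lower members, 16 were too low in adaxial L1 to pass the filter on low counts there and entered this comparison through the all-layers libraries, where they were high. Their direction follows from that entry, so the counts and the median describe the members and support nothing. The same holds for the p-values and bounds given below for these 16. Among the 3573 genes that entered the same way 53.5% were lower and 0.112% higher. Of the 8 members that also passed the filter within adaxial L1, 2 were lower (GRMZM2G058450 and GRMZM2G368827) and 1 was higher, with a median log2 difference of -0.47, against 14.7% lower, 15.2% higher and a median of -0.04 among 18761 such genes. The highest adaxial L1 value lay below the lowest all-layers value for 15 of the 25, as for 6.56% of all genes, and for none did the reverse hold, as for 0.649%. Adaxial L1 tissue was captured and numbered separately from all-layers tissue, so the layer and the capture cannot be told apart. In bulk tissue, fewer cells of a type and less RNA per cell cannot be told apart either. The part of the falling vascular and photosynthetic markers in this difference was not tested.

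The direction of the set that the rule chose, though not the layer values of the 25 members, depended on lg1-R replicate 3. With genes chosen without it, 183 identifiers passed and 145 were tested, 24 of the 25 members and 121 others. Of the 145, 55 were higher and 28 lower in adaxial L1, with a median log2 difference of 0.50 (edgeR). With each of the other 5 P6 libraries left out of the rule, 92 to 119 identifiers passed, 1 to 4 were higher and 29 to 48 lower, and the medians lay between -6.43 and -3.39. In the P6 libraries the vascular markers summed to 1.59, 0.242 and 5.61 FPKM in lg1-R and to 1.43, 1.79 and 1.31 FPKM in wild type, so lg1-R replicate 3 was the highest. The photosynthetic markers summed to 29.8, 30.1 and 37.9 FPKM in lg1-R and to 73.5, 32.8 and 30.5 FPKM in wild type. The part of these markers in the choice of members was not tested.

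A group of 6 members had no count in any of the 9 adaxial L1 libraries, as did 1.63% of all genes tested. A floor of 3 counts over the 9 libraries (0.0232 CPM) gives lower bounds for their differences, which cover counting error only. GRMZM2G094067 was at least 432-fold lower in adaxial L1, with 2500 counts in all layers and all-layers levels of 3.46 to 27.9 FPKM (median 10.3). GRMZM2G113167 was at least 244-fold lower, with 3.07 to 13.6 FPKM in all layers (median 6.58).

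ATPP2-B1 was among these 6, at least 221-fold lower in adaxial L1. Its all-layers levels were 1.19, 10.7 and 9.10 FPKM in ligule, 4.43, 11.5 and 4.79 in blade, and 11.2, 0.932 and 4.81 in sheath. No region stood apart for it, since the 3 groups overlapped widely. GRMZM2G128644 was at least 161-fold lower, GRMZM2G039988 at least 78.9-fold and GRMZM2G107065 at least 50.6-fold. GRMZM5G808853 had 1 count in adaxial L1 and 590 in all layers, a depth-scaled ratio of 0.00327 with a 95% counting interval of 8.27e-05 to 0.0183.

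Of the remaining 11 members lower in adaxial L1, all but GRMZM2G368827 and GRMZM2G058450 entered the comparison through the all-layers libraries. The p-values of those that entered this way support no direction. Incw is the sucrose-splitting enzyme among these 11. It had 0, 0 and 0 FPKM in adaxial L1 ligule, 0.0301, 0 and 0.0325 in adaxial L1 blade, and 0, 0.108 and 0.130 in adaxial L1 sheath. Its all-layers levels were 2.48, 2.39 and 4.21 FPKM in ligule, 1.67, 2.94 and 1.44 in blade, and 6.04, 1.54 and 2.45 in sheath. Every adaxial L1 library was below every all-layers library, with a log2 difference of -6.95 (SE 0.64, adjusted p = 1.3e-07, edgeR quasi-likelihood test). Of 24 tested genes of the starch and sugar list, Incw included, 2 were higher and 10 lower in adaxial L1, with a median log2 difference of -0.80.

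GRMZM2G368827 had the highest levels of these members in all layers, with 50.2 to 210 FPKM (median 86.1), against 0 to 8.02 FPKM (median 0.0608) in adaxial L1. The 2 ranges did not touch, and the log2 difference was -5.79 (SE 0.87, adjusted p = 2.0e-04, edgeR). It was -8.99 without sheath replicate 3 of adaxial L1, the library with its highest adaxial L1 value. GRMZM2G377217 was at 0 to 1.35 FPKM (median 0.0785) in adaxial L1 and 9.11 to 36.5 FPKM (median 22.04) in all layers. The log2 difference was -8.12 with an SE of 0.44 (adjusted p = 1.8e-10, edgeR).

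GRMZM2G095725 had 0 to 0.172 FPKM in adaxial L1 and 7.01 to 30.9 FPKM in all layers, with a log2 difference of -9.67 (SE 0.54, adjusted p = 2.1e-10, edgeR). GRMZM2G074173, the neighbour of GRMZM2G377217, was at 0 in 6 of 9 adaxial L1 libraries and at 3.77 to 8.45 FPKM in all layers. Its adaxial L1 values above 1 FPKM, 1.70 and 2.14, were both in blade, as were the 3 highest of GRMZM2G377217 (0.739, 1.35 and 0.708). FIP1 had 0 to 0.706 FPKM in adaxial L1 and 0.731 to 7.16 FPKM in all layers, with a log2 difference of -5.34 (SE 0.90, adjusted p = 1.3e-04, edgeR).

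CYP78A53, of a cytochrome P450 family, was lower with overlap. It measured 0, 1.67 and 0.438 FPKM in adaxial L1 ligule, where its 2 highest adaxial L1 values were, and at most 0.211 in adaxial L1 blade and sheath. In all layers it was at 1.74, 2.396 and 1.47 FPKM in ligule, 0.462, 0.493 and 0.589 in blade, and 3.53, 0.213 and 1.51 in sheath. The log2 difference of adaxial L1 from all layers was -3.39 (SE 0.83, adjusted p = 0.0032, edgeR), and -5.14 without blade replicate 1 of adaxial L1. Ligule lay above blade in all layers with no overlap, and the comparison missed the threshold (log2 1.72, SE 0.69, adjusted p = 0.22, edgeR) but passed it when replicates were paired, as described with the regions.

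The other lower members included GRMZM2G058450, the one detected in every adaxial L1 library. It had 3.53 to 25.4 FPKM there (median 4.67) and 13.1 to 23.2 FPKM in all layers (median 16.1), a log2 difference of -1.16 (SE 0.21, adjusted p = 1.8e-04, edgeR). GRMZM2G345086 was at 0 to 1.68 FPKM in adaxial L1 and 3.35 to 51.9 FPKM in all layers, and GRMZM2G532387 at 0 to 1.28 and 4.64 to 32.9 FPKM. GRMZM2G178509 was at 0 in 8 of 9 adaxial L1 libraries and at 0.535 to 4.51 FPKM in all layers.

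The member that rose was GRMZM2G460617. It had 290, 203 and 300.3 FPKM in adaxial L1 ligule, 174, 163 and 47.7 in adaxial L1 blade, and 40.5, 35.5 and 23.7 in adaxial L1 sheath. The all-layers libraries had 13.2, 72.2 and 62.0 FPKM in ligule, 16.2, 42.6 and 24.6 in blade, and 78.1, 12.5 and 29.0 in sheath. Adaxial L1 lay above all layers in ligule and in blade without overlap, while the sheath values overlapped. The mean log2 difference over the 3 regions was 1.69 (SE 0.38, adjusted p = 0.0023, edgeR).

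The members with no call between layers were EREB20, PYL5, GRMZM2G362631, GRMZM5G822895, GRMZM2G353236 and GRMZM2G152451, and 4 of these 6 had a call between regions. PYL5, the receptor family member, was at 0 to 4.41 FPKM in adaxial L1 (median 0.870) and 1.57 to 8.88 FPKM in all layers (median 3.19). Its log2 difference was -1.49 (SE 0.59, adjusted p = 0.055, edgeR). Of 7 tested genes of that receptor family, PYL5 included, 1 was higher and 3 were lower in adaxial L1.

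**Figure D2:**
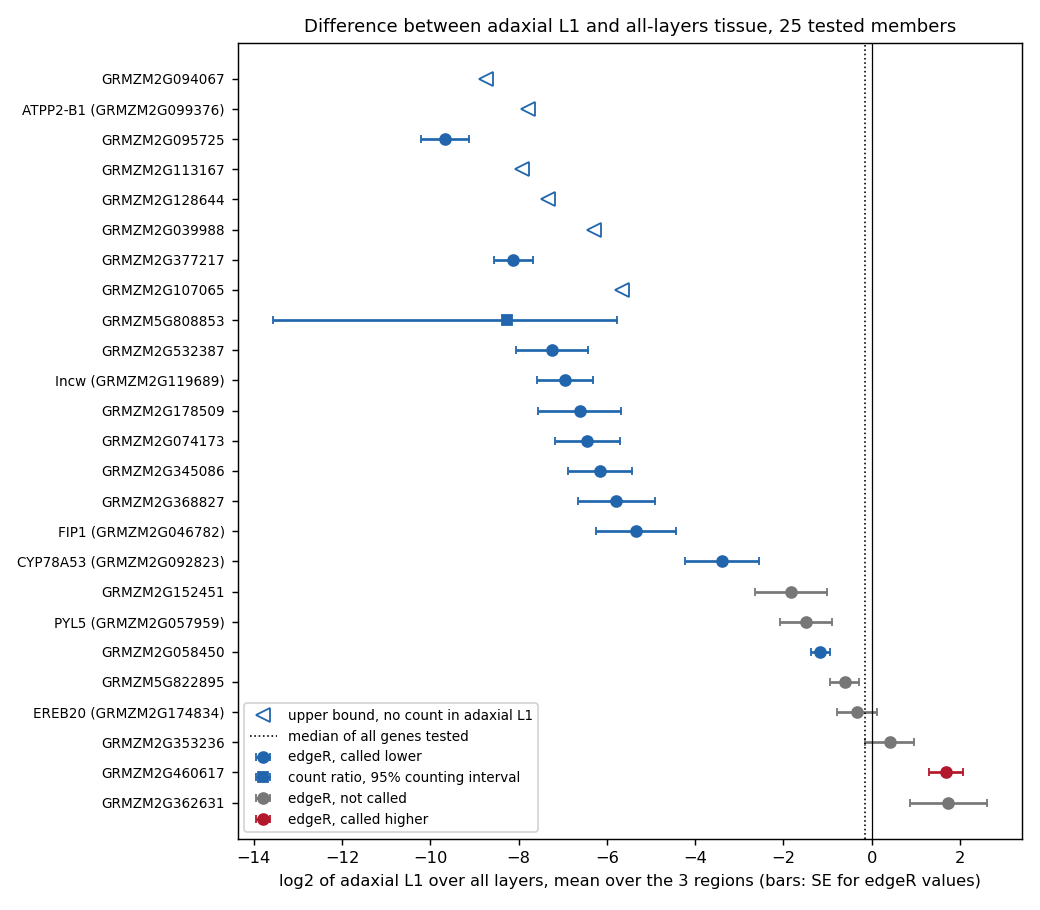
Difference between adaxial L1 and all layers for the 25 tested members, as log2 of adaxial L1 over all layers averaged over ligule, blade and sheath. Circles are edgeR values with SE, open triangles are upper bounds for the 6 members with no adaxial L1 count, and the square is a count ratio with its 95% counting interval; GRMZM2G460617 is the call to the right of 0.

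The comparison of ligule with its flanks in all layers gave no member that was higher in ligule and 3 that were lower, against 2.74% higher and 1.83% lower among 22205 genes tested (edgeR, adjusted p below 0.05). The 3 include GRMZM2G362631, which passed the filter on low counts through blade alone, so its direction follows from that entry. At an unadjusted p below 0.05 there were 6 members in either direction, as for 16.5% of all genes (edgeR). DESeq2 called 4, which is not read as a result because its share over all genes is not given here. The median log2 difference of the 25 was 0.10, against 0.03 over all genes. Ligule had the highest mean of the 3 regions for 14 of the 25 members, as it did for 49.4% of all genes, blade for 7 and sheath for 4, as for 22.3% and 28.4%. Ligule values lay above those of both flanks without overlap for 1 member, GRMZM2G128644, as for 6.34% of all genes, and below them for 2, as for 2.96%. GRMZM2G128644 had 3.34, 6.78 and 4.39 FPKM in ligule, 1.89, 2.60 and 2.16 in blade, and 1.99, 0.761 and 2.58 in sheath, and its difference was not called (log2 1.19, SE 0.37, adjusted p = 0.1, edgeR).

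EREB20, the AP2/ERF transcription factor, had its lowest mean in ligule and its highest in blade. Its all-layers levels were 0.116, 0.419 and 0.418 FPKM in ligule, 1.94, 2.58 and 3.50 in blade, and 0.494, 0.602 and 1.46 in sheath. The ligule values lay below all others, with a log2 difference from the mean of blade and sheath of -2.35 (SE 0.53, adjusted p = 0.023, edgeR). The difference from blade was -3.23 (SE 0.58, adjusted p = 0.0051) and that from sheath -1.46 (SE 0.59, adjusted p = 0.31, edgeR). The call against the mean was lost without blade replicate 4 (adjusted p = 0.053), blade replicate 5 (0.062), ligule replicate 3 (0.076) or ligule replicate 5 (0.074), at log2 values of -2.61 to -1.92. It was lost too under limma on log2(FPKM + 1) with no filter.

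The adaxial L1 libraries, a separate capture, gave the same order of means for EREB20. Blade against sheath was called in neither tissue (adjusted p = 0.2 in all layers and 0.73 in adaxial L1, edgeR). EREB20 had 0.0647, 0 and 0.0334 FPKM in adaxial L1 ligule, 4.19, 2.85 and 2.09 in blade, and 0.700, 2.05 and 2.08 in sheath. Ligule held 2 counts in all, against 265 in blade and 89 in sheath, so the ratio to blade was 0.0116 (95% counting interval 0.0014 to 0.0423) and to sheath 0.0217 (0.00258 to 0.0806). These intervals cover counting error only and not the spread between libraries. The test against the mean of blade and sheath gave an adjusted p of 0.0069, against blade 0.0063 and against sheath 0.017 (edgeR). EREB20 passed the filter on low counts in adaxial L1 through blade and sheath and not ligule, so these p-values support no direction. The call against sheath was lost without ligule replicate 2 (adjusted p = 0.069) or replicate 3 (0.086). It was also lost with the replicate block and under limma on log2(FPKM + 1) with and without its filter. Of 21 tested AP2/EREB genes in all layers 1 was higher and 1, EREB20, was lower in ligule, and of 19 in adaxial L1 3 were higher and 1, again EREB20, was lower. In the P6 libraries that chose it, EREB20 had 4.83, 8.97 and 7.82 FPKM in lg1-R and 1.82, 2.35 and 2.56 FPKM in wild type.

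GRMZM2G362631, not matched to the reference table, was highest in blade. Through all layers it had 0.479, 0.376 and 0.108 FPKM in ligule, 7.203, 6.04 and 8.50 in blade, and 0.553, 0.215 and 0.178 in sheath. Blade stood clear of both other regions, which overlapped. Blade minus sheath was 4.46 in log2 units (SE 0.66, adjusted p = 0.0038, edgeR), which was the 1 call among the members in that comparison. The gene passed the filter on low counts through its blade libraries (207, 76 and 103 counts). Ligule held at most 10 counts per library and sheath at most 5. The direction of its blade calls follows from that entry, so the all-layers p-values of this gene support no direction. No member was higher in sheath, the background was 0.504% higher in blade and 1.07% higher in sheath, and 3 members had an unadjusted p below 0.05 in either direction, as did 8.99% of all genes. Among all genes, 2.01% were lower in ligule than in blade and 1.37% lower than in sheath. Ligule minus blade was -4.67 (SE 0.62, adjusted p = 0.00065), and ligule minus sheath was -0.21 (SE 0.72, adjusted p = 0.95, edgeR).

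The difference of GRMZM2G362631 in ligule from the mean of blade and sheath was -2.44 (SE 0.60, adjusted p = 0.035, edgeR). It missed the threshold when any blade library, ligule replicate 4 or 5, or sheath replicate 3 was left out, at log2 values of -2.57 to -1.92 and adjusted p of 0.066 to 0.13. With the replicate number as a block it missed it too.

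In adaxial L1 GRMZM2G362631 had 0, 0 and 0.164 FPKM in ligule, 35.7, 55.7 and 49.4 in blade, and 0.284, 0.0981 and 10.3 in sheath. Its blade values lay above those of all layers without overlap, a difference within blade that was not tested. Ligule held 2 counts, against 1349 in blade and 66 in sheath, for ratios of 0.00228 (95% counting interval 0.000276 to 0.00825) and 0.0292 (0.00347 to 0.11). These intervals cover counting error only and not the spread between libraries. Ligule was called lower than blade (adjusted p = 0.0035, edgeR), and its difference from sheath was not called (adjusted p = 0.071, edgeR). The gene passed the filter on low counts in adaxial L1 through its blade libraries, where it was high. The p-values given here therefore support no direction. Ligule against the mean of blade and sheath had an adjusted p of 0.01 (edgeR), and 0.065 and 0.06 without ligule replicate 1 and replicate 3. Sheath replicate 3 held nearly all of the sheath signal. In P6 the gene had 4.76, 6.46 and 5.23 FPKM in lg1-R and 1.28, 0.799 and 1.27 FPKM in wild type.

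GRMZM5G822895 was lower in ligule than on either side. In all layers it had 30.1, 46.9 and 36.0 FPKM in ligule, 95.02, 205 and 124 in blade, and 232, 102 and 195 in sheath. The ligule range lay below the other 2, and the log2 difference from their mean was -2.19 (SE 0.35, adjusted p = 0.0023, edgeR). Against blade alone it was -2.05 (SE 0.37, adjusted p = 0.0058) and against sheath alone -2.33 (SE 0.38, adjusted p = 0.0042, edgeR). The call against blade alone was lost under limma on log2(FPKM + 1) with no filter.

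In adaxial L1 GRMZM5G822895 had 4.93, 28.8 and 4.57 FPKM in ligule, 64.5, 34.7 and 104 in blade, and 83.4, 224 and 333 in sheath. Ligule was again below every blade and sheath library, with a log2 difference from their mean of -3.52 (adjusted p = 0.0057, edgeR). Against sheath alone it was -4.31 (adjusted p = 0.0035) and against blade alone -2.73 (adjusted p = 0.033, edgeR). The call against blade alone was lost without replicate 1 or 3 of blade or of ligule, with adjusted p of 0.061 to 0.15. It was lost too under limma on log2(FPKM + 1) with no filter. Its calls against the mean of blade and sheath, in both tissues, held in every alternative run. In P6 it had 160, 141 and 112 FPKM in lg1-R and 69.9, 40.6 and 50.1 FPKM in wild type.

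Ligule and blade libraries of all layers with the same replicate number deviated together, and a fit of these 6 libraries with the number as a block, added after seeing the data, called 2 members higher and 5 lower in ligule than in blade. Without the block, in the fit of all 9 libraries, 0 were higher and 3 lower. In the paired fit 6.57% of 22264 genes were higher and 6.36% lower, so its background was larger too. The pairing was read from these same libraries, so calls gained with it are not independent support. EREB20, GRMZM2G362631 and GRMZM5G822895 were called in both fits, with adjusted p of 0.00014, 3.4e-05 and 8.4e-06 in the paired one (edgeR). GRMZM2G362631 passed the filter on low counts through blade here too, so its p-value supports no direction.

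The members added higher in ligule were CYP78A53 and GRMZM2G094067. CYP78A53 differed by 1.68 (SE 0.37, adjusted p = 0.0075, edgeR) on the log2 scale. GRMZM2G094067 had 17.1, 23.9 and 10.1 FPKM in ligule and 6.99, 10.3 and 6.104 FPKM in blade. The groups overlapped by 1 pair of values, ligule was higher at each number, and the paired log2 difference was 0.94 (SE 0.24, adjusted p = 0.019, edgeR), against an adjusted p of 0.46 without pairing.

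The members added lower in ligule were GRMZM2G368827 and GRMZM2G152451. GRMZM2G368827 had 63.5, 86.1 and 60.9 FPKM in ligule and 210, 137 and 84.4 FPKM in blade. The groups overlapped by 1 pair of values, ligule was lower at each number, and there was a paired log2 difference of -1.1 (SE 0.23, adjusted p = 0.0063, edgeR), against an adjusted p of 0.18 without pairing.

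In adaxial L1 8 of the 25 members were tested, and the other 17 were too low there. In ligule 1 of the 8 was higher and 3 were lower than the mean of blade and sheath, against 2.95% higher and 4.78% lower among 18761 genes. The 3 were EREB20, GRMZM2G362631 and GRMZM5G822895, which were also the 3 lower in all layers, and at an unadjusted p below 0.05 there were 7 of 8 members, as for 20.0% of all genes. EREB20 and GRMZM2G362631 had passed the filter there without ligule, so their direction, also against blade alone, follows from that entry. The count of 3 therefore supports nothing. Ligule lay above both flanks without overlap for 1 of the 8, as for 6.71% of all genes, and below them for 2, as for 6.09%. Against blade alone, 0 were higher and 3 lower in ligule, where 2.25% and 4.23% of all genes were (edgeR).

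The member higher in adaxial L1 ligule was GRMZM2G460617, with a log2 difference of 1.93 (SE 0.33, adjusted p = 0.0028, edgeR). Its ligule values, given with the layers, lay above all blade values and these above all sheath values. Ligule exceeded sheath by 2.97 (SE 0.43, adjusted p = 0.0012) and blade by 0.89 (SE 0.40, adjusted p = 0.26, edgeR). Blade exceeded sheath by 2.08 (SE 0.42, adjusted p = 0.022, edgeR), the 1 call among the 8 members in that comparison, where 0.858% of all genes were higher and 1.1% lower. That call was lost without blade replicate 1 (adjusted p = 0.081), blade replicate 2 (0.059), sheath replicate 2 (0.067) or sheath replicate 3 (0.084), and under each of the 3 limma settings. In all layers the 3 regions of GRMZM2G460617 overlapped (ligule against the mean, log2 0.43, SE 0.64, adjusted p = 0.83, edgeR). In P6 it had 146, 221 and 100.0 FPKM in lg1-R and 15.1, 21.4 and 43.0 FPKM in wild type.

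Another pair of members differed between adaxial L1 ligule and sheath alone. GRMZM2G353236 had 10.6, 3.04 and 12.5 FPKM in ligule, 9.09, 0.0966 and 5.63 in blade, and 0.569, 0.147 and 0.0795 in sheath. Ligule was above sheath without overlap (log2 5.19, SE 1.27, adjusted p = 0.028, edgeR), and blade spanned both. GRMZM2G353236 passed the filter on low counts through ligule and blade and not sheath, so this p-value supports no direction. Leaving out replicate 1 or 3 of ligule, or 2 or 3 of sheath, ended the call, with adjusted p of 0.073 to 0.10. It was lost too under limma on log2(FPKM + 0.1) (0.067) and on log2(FPKM + 1) with no filter (0.15).

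GRMZM2G058450 went the other way, with 3.53, 4.25 and 4.39 FPKM in adaxial L1 ligule, 4.72, 3.95 and 4.67 in blade, and 25.4, 10.6 and 8.66 in sheath. Sheath lay above both other regions without overlap, and ligule minus sheath was -1.9 on the log2 scale (SE 0.48, adjusted p = 0.032, edgeR). That call was lost without blade replicate 1, sheath replicate 1 or any ligule library, with adjusted p of 0.053 to 0.17. The replicate block (0.073) and each of the 3 limma settings (0.05 to 0.10, none below the threshold) ended it as well. The background of these pairwise calls in adaxial L1 was 2.13% higher and 4.04% lower in ligule than in sheath.

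**Figure D3:**
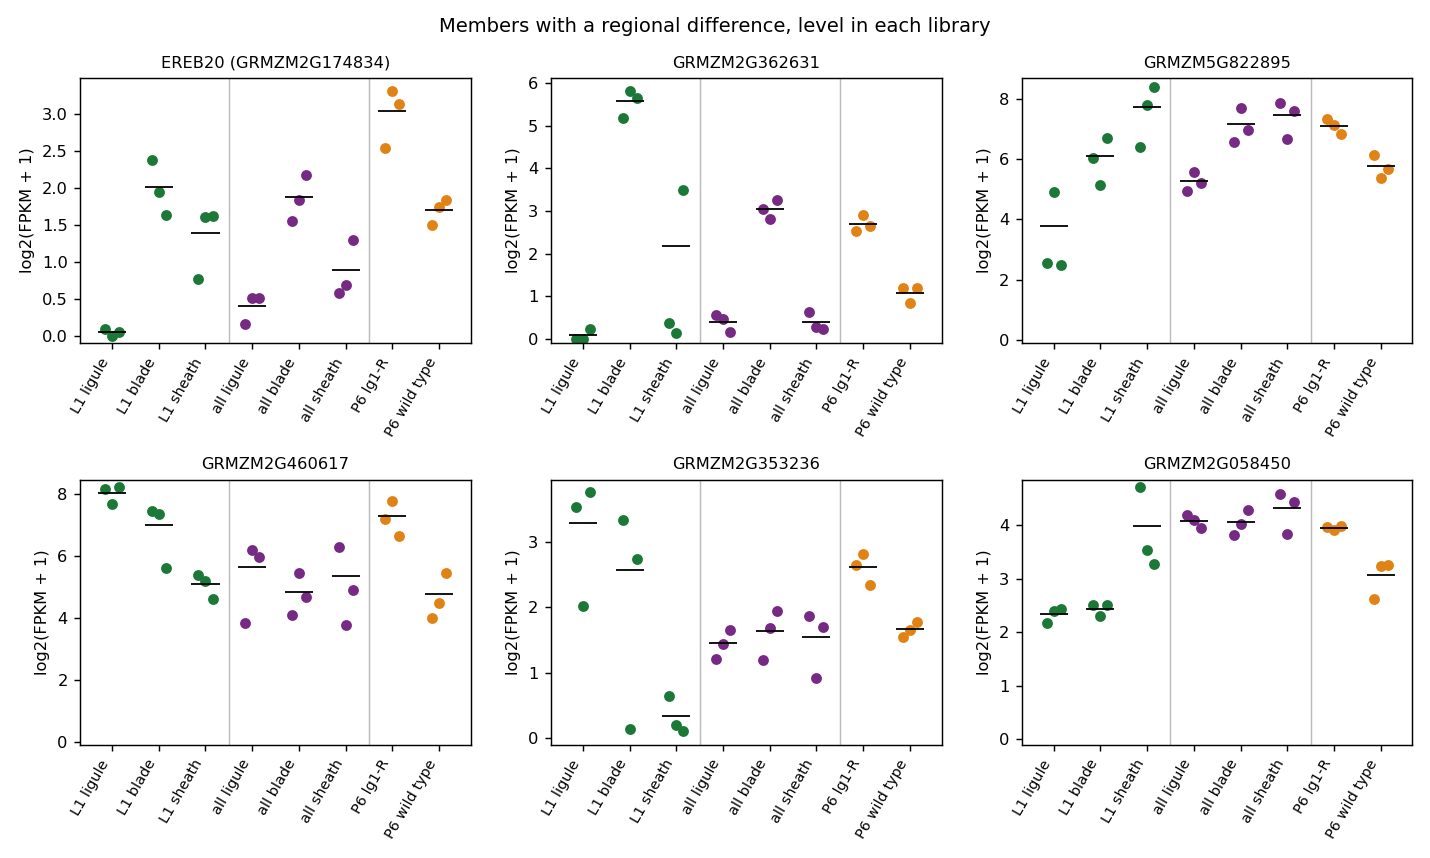
Level of the 6 members with a regional call without pairing, as log2(FPKM + 1) on the vertical axis, in each library of adaxial L1 (green), all layers (purple) and P6 (orange); points are libraries and bars are the group mean. EREB20 and GRMZM5G822895 are lowest in ligule in both tissues, GRMZM2G362631 is highest in blade in both, and the P6 levels are those the genes were chosen on.

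The difference between the ligule effects of the 2 tissues was tested directly and passed the threshold for 0 of the 25 members (edgeR), against 0.358% higher and 1.91% lower among 22334 genes. At an unadjusted p below 0.05 there were 8 members, as for 12.3% of all genes (edgeR). DESeq2 called 3, again without its share over all genes, so that count is not read as a result. PYL5 was one with an unadjusted p that low (0.0074, adjusted p = 0.16, edgeR). In adaxial L1 it had 0.662, 0 and 0.114 FPKM in ligule, 0.870, 4.41 and 4.14 in blade, and 1.72, 3.02 and 0 in sheath. In all layers it had 2.43, 8.88 and 5.96 FPKM in ligule, 1.80, 3.19 and 2.30 in blade, and 6.24, 1.57 and 3.24 in sheath. Its ligule effect was thus -3.03 (SE 1.40) in adaxial L1 and 0.83 (SE 0.46) in all layers on the log2 scale, and neither was called.

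Within the all-layers regions the members moved together from library to library. In ligule, replicate 3 was the lowest library for 16 of the 25 and replicate 4 the highest for 17, against 33.8% and 19.7% of 19783 genes with a mean of at least 1 FPKM. In sheath, replicate 4 was the lowest for 22 of the 25 and replicate 3 the highest for 22, against 39.6% and 21.8%. In blade, replicate 3 was the lowest for 15 and replicate 4 the highest for 13, against 33.8% and 27.2%. The median ratio of sheath replicate 3 to replicate 4 was 3.80 for the members and 0.962 for all tested genes, and that of ligule replicate 4 to replicate 3 was 2.00 and 0.917.

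Examples of this spread are GRMZM2G345086, with 49.8, 3.35 and 36.5 FPKM in sheath, and GRMZM2G460617, with 78.1, 12.5 and 29.0. GRMZM5G822895 had its lowest and highest values in these same libraries in each of the 3 regions, while the lowest sheath library of EREB20 was replicate 3. Summed epidermis markers were 187, 238 and 265 FPKM and summed vascular markers 3.01, 4.59 and 5.83 FPKM in sheath replicates 3, 4 and 5, and neither was lowest in replicate 4. Summed photosynthetic markers were 46.1, 43.4 and 61.5 FPKM there and were lowest in replicate 4. In ligule replicates 3, 4 and 5 the vascular markers summed to 2.56, 3.43 and 9.71 FPKM and the photosynthetic markers to 36.3, 35.3 and 58.7 FPKM. The part of cell type or capture in the spread was not tested. Between layers, 19 members were lower and 1 higher in adaxial L1 both without sheath replicate 4 and without ligule replicate 3.

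**Figure D4:**
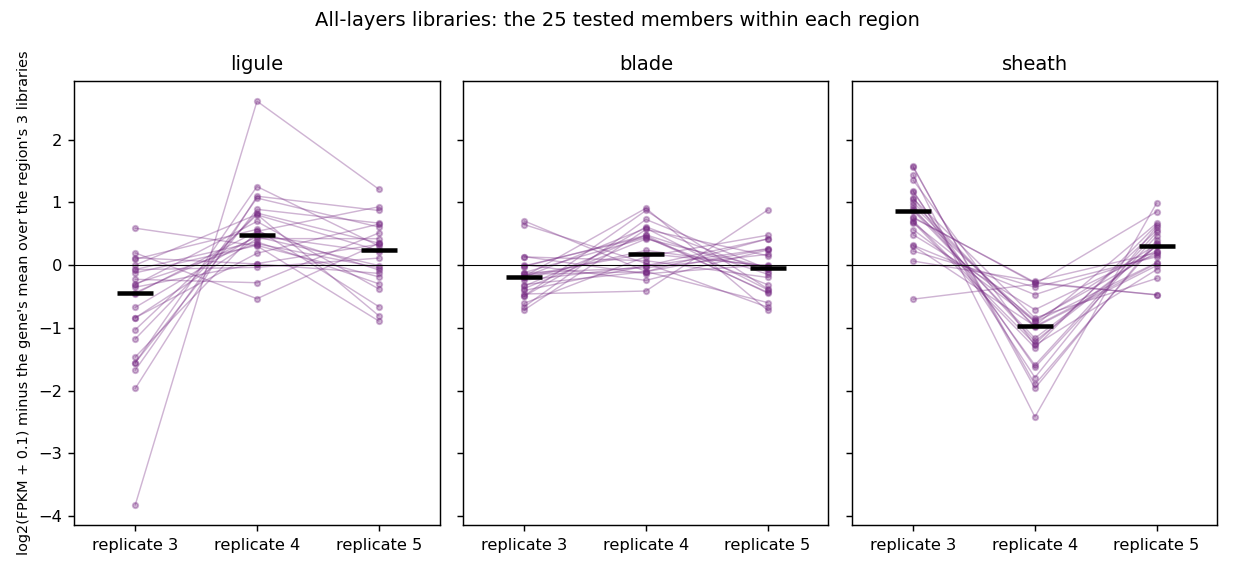
Level of each of the 25 tested members in the all-layers libraries, as log2(FPKM + 0.1) minus that gene's mean over the 3 libraries of its region; thin lines join the values of a gene and black bars are medians. Most members lie lowest in sheath replicate 4 and in ligule replicate 3.

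Set beside P6, the mean all-layers P7 level was above the mean of P6 wild type for 23 of the 25 members (92.0%) and above the mean of P6 lg1-R for 6 (24.0%). Among 16975 genes with a mean of at least 2 FPKM in lg1-R, the shares were 44.7% and 50.3%. The rule used both P6 means, and stage, tissue and capture differ too, so nothing is read from these shares. EREB20 was 1 of the 2 members not above P6 wild type, with a mean of 2.24 FPKM in P6 wild type and P7 means of 0.318, 2.67 and 0.852 FPKM in ligule, blade and sheath of all layers.

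GRMZM2G152451 had no call in P7 without pairing. It had 0.0380, 0.822 and 0.569 FPKM in ligule of all layers, 1.21, 1.26 and 3.22 in blade, and 1.32, 0.255 and 1.28 in sheath. Its groups overlapped (ligule against the mean of blade and sheath, log2 -1.64, SE 0.79, adjusted p = 0.33, edgeR). Ligule lay below blade without overlap, and the paired log2 difference from blade was -2.44 (SE 0.68, adjusted p = 0.029, edgeR), against an adjusted p of 0.21 without pairing.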

How the data were processed

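The 24 libraries of 8 groups were made from captured cells after 2 rounds of linear RNA amplification, per the labels' protocols. Plants were kept in 15 h light (25 °C) and 9 h dark (20 °C). The authors deposited expected counts, estimated for each gene, and FPKM in separate tables, each with 1 column per library. The submitters' processing notes name TopHat2 2.0.10 together with Cuffdiff 2.1.1 but not their roles. The sources used here give no genome build, annotation or strandedness. Near-identical copies and overlapping genes may share reads.

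Members, the region and layer comparisons, the gene lists and the rule for named genes were chosen with earlier results of these data known, so no count here is independent support for a pattern already seen in them. The rule named up to 8 called members per comparison and direction with non-overlapping replicates and a mean log2 CPM of at least 2, and every member with a known role. Other members are named because counts were small or were chosen after their values were seen. The list of abscisic acid receptors and the comparisons of ligule with blade alone, paired or not, and with sheath alone were added after seeing the data. The labels' groups were used, and the P6 difference was not tested.

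Deposited counts were rounded and tested in edgeR 4.0.16 (R 4.3.3) with the quasi-likelihood test, robust, TMM factors and filterByExpr (smallest count 10, smallest total 15), in fits of 9 libraries per tissue and of all 18 for layers. Adjustment was Benjamini-Hochberg over all genes tested, with a threshold of 0.05. Alternatives were DESeq2 1.42.0, RLE factors, no filter, limma 3.58.1 on log2(FPKM + 1) and log2(FPKM + 0.1), a replicate block, each library left out and other settings of the member rule. In all layers, deviations from the group means correlated at 0.23 to 0.411 between same-numbered ligule and blade libraries, so their numbers were taken to pair them. The labels do not say what a number marks. The test was checked on simulated data. A group with no count was given a floor of 3 counts, and 1 to 3 counts a ratio with an exact 95% interval. In single P7 libraries that floor corresponds to 0.0569 to 0.786 CPM. Symbols came from RefSeq's gene table for Zm-B73-REFERENCE-NAM-5.0, where 18259 of the identifiers had 1 matching locus and 519 had several. Figures were drawn with matplotlib 3.10.9.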

Additional observations from a re-analysis of the deposited data

How the results depend on the processing

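The 19 member calls between adaxial L1 and all layers kept their direction and threshold in all 25 alternatives run on the libraries and the test. Of the 18 lower calls, 16 were of members that had entered through the all-layers libraries, so their stability supports nothing. DESeq2 called 2 members higher in adaxial L1, as did limma on log2(FPKM + 1) with and without its filter and edgeR with no filter. With members chosen at 2 times, 7 were tested between layers and 5 of these were lower in adaxial L1, as were 20.9% of all genes. In ligule 1 was lower in each tissue. With members chosen at a mean of 5 FPKM, 10 of 15 tested were lower in adaxial L1. In all layers, DESeq2 and edgeR with no filter each called 1 member higher in ligule, and no filter gave 1 lower in blade than in sheath. In adaxial L1, DESeq2, no filter and the replicate block each gave 2 higher in ligule. For blade over sheath there, DESeq2 and the replicate block gave 2 higher, no filter 3 and limma on log2(FPKM + 0.1) 0, and DESeq2 and no filter each gave 1 lower. For the difference of the ligule effects, DESeq2 gave 1 higher and 2 lower, and no filter 2 higher and 5 lower. The share of all genes called in each of these alternatives is not given here, so the counts are not read as changes. The cause of the differences was not tested.

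Replicate numbers were taken to pair ligule with blade in all layers from correlations in these same libraries, and not from the labels. A fit of those 6 libraries with the block gave 2 members higher and 5 lower in ligule, where 6.57% and 6.36% of all genes were. The numbers did not pair the 3 regions together. Sheath deviations correlated with same-numbered blade and ligule libraries at 0.267 and 0.264 for number 5 but at -0.448 to -0.198 for numbers 3 and 4, while sheath 3 with number 4, and sheath 4 with number 3, of the other regions gave 0.311 to 0.478. In adaxial L1 same-numbered libraries correlated at -0.053 to 0.044. With the replicate block over all 3 regions, 18 members were lower and 1 higher in adaxial L1 than in all layers, and 2 were lower in ligule in all layers, against 3 without it.

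With each P7 library left out, or each P6 library left out of the member rule, which admits 92 to 183 identifiers, the counts ranged as follows. In all layers 0 to 1 members were higher and 1 to 7 lower in ligule, and 1 to 3 higher and 0 to 1 lower in blade than in sheath. In adaxial L1 1 to 6 were higher and 2 to 14 lower in ligule, and 0 to 7 higher and 0 to 1 lower in blade than in sheath. Between layers 1 to 55 were higher and 18 to 48 lower in adaxial L1, and the ligule effects differed for 0 to 1 upward and 0 to 4 downward. With a P6 library left out of the rule, 40 to 145 genes were tested between layers. Such counts are therefore not comparable with those of the 25. Leaving lg1-R replicates 1, 2 and 3 out of the rule gave 37, 33 and 28 lower in adaxial L1, and the 55 higher came without replicate 3. Leaving out wild-type replicates 1, 2 and 3 gave 29, 31 and 48 lower. In adaxial L1 17 of the 25 were too low to be tested between regions, and a floor of 3 counts sets the bounds of the 6 members at 0.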
